A study of Mus musculus with 9 samples.

Results

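The genes described here encode the 3 TGF-beta ligands (Tgfb1, Tgfb2 and Tgfb3), their receptors (Tgfbr1, Tgfbr2 and Tgfbr3) and 3 latent TGF-beta binding proteins (Ltbp1, Ltbp2 and Ltbp3). They were taken by gene name from the table of the whole series, in which these 9 genes are among 11051 protein-coding genes. RNA was sequenced from primary hepatic stellate cells of C57BL/6 mice, the pericyte-like cells of the liver sinusoid that turn into collagen-secreting myofibroblasts during injury. The cells received exosomes, small vesicles shed into culture medium, from KPC cells, from Panc02 cells (both mouse pancreatic adenocarcinoma lines) or, as control, from primary mouse pancreatic duct epithelial cells. Each group had 3 libraries, all cells grew in serum depleted of exosomes, and the comparison asks what exosomes of tumour origin change relative to exosomes of duct cells. Stellate cells without exosomes were not analysed here, the sources used here give neither the exosome dose nor the length of exposure, and each tumour source was a single cell line.

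TGF-beta is secreted as a latent complex, in which the mature dimer stays enclosed by its own propeptide, and a latent TGF-beta binding protein usually tethers that complex to the extracellular matrix. Integrins containing the alpha-v subunit, thrombospondin and proteases release the dimer, which binds the kinase Tgfbr2. Tgfbr2 then recruits and phosphorylates Tgfbr1, and Tgfbr1 phosphorylates the transcription factors Smad2 and Smad3. In liver the pathway is best known as the main inducer of matrix synthesis by stellate cells.

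The gene with the largest difference among the 9 was Ltbp2, a microfibril-associated member of the family that, unlike Ltbp1 and Ltbp3, does not bind latent TGF-beta covalently. Its mean level was 2.33 times that of control in Panc02-exosome cultures and 1.81 times in KPC-exosome cultures. The Panc02 libraries lay wholly above control and the KPC libraries overlapped it, and Ltbp1 and Ltbp3 overlapped control in both. The co-receptor Tgfbr3 was the counterpart in the other direction, at 0.727 of the control mean with Panc02 exosomes and 0.773 with KPC exosomes. Neither difference passed the test across all genes in a model with group means alone. Both passed for Panc02 exosomes when libraries with the same replicate number were paired, but both calls were lost when any one of 6 of the 9 libraries was left out.

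The start regions of the 3 latent TGF-beta binding protein genes are printed first, because the family is where members diverged most. Each sequence is 300 bases of RefSeq on GRCm38.p6, 250 before the start and 50 from it, written 5′ to 3′ on the gene's own strand, with capitals marking matches to the motifs named after them. Ltbp2 lies at chr12:84876442-84876741 on the minus strand, the first start of Ltbp1 at chr17:75005279-75005578 on the plus strand, and Ltbp3 at chr19:5740650-5740949 on the plus strand.
Ltbp2: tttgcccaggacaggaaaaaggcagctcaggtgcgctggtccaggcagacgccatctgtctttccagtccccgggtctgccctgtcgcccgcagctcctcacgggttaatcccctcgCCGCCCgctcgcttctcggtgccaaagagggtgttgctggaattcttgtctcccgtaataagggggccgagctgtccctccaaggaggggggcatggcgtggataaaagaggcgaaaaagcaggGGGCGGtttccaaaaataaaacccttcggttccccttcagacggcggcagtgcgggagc
Ltbp1: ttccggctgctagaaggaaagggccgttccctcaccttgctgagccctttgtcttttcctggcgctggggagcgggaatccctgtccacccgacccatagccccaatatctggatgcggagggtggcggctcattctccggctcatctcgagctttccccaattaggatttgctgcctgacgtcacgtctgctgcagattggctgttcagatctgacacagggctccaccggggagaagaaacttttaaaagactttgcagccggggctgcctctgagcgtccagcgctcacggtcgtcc
Ltbp3: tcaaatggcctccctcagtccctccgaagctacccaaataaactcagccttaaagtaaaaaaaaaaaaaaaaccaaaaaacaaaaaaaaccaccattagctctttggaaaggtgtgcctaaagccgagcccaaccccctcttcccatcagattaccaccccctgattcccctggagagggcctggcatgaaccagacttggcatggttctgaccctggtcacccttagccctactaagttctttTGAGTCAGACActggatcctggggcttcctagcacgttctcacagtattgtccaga

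The motifs were searched on both strands, and the share of all 32851 promoter windows of this length that hold each is given with it. The Smad box GTCTAGAC (0.213% of windows) and the Tead site GGAATG (14.7%) matched none of the 3 windows, and the TATA letters TATAAA (13.6%) also matched none. The Ltbp2 window held 2 GC boxes, GGGCGG (35.7% of windows), at positions -133 to -128 and -9 to -4 from the start. The Ltbp3 window held 1 AP-1 site, TGANTCA (7.81%), at -6 to 1, and overlapping it 1 CAGA element, CAGACA (21%), at -1 to 5. The first Ltbp1 window held none of these letters, and the window of its second start, not printed, held 2 CAGA elements, at -149 to -144 and -98 to -93. Of the 9 genes, 7 had a promoter entry, all but Tgfb3 and Tgfbr3. Among the other entries Tgfb1 held 6 GC boxes, Tgfb2 held 1 CAGA element and 1 TATA match, and Tgfbr2 held no match. Tgfbr1 held 2 GC boxes at its first start and 1 CAGA element at its second. A match describes letters in this window and was not linked to binding by any measurement here.

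Levels are FPKM, fragments scaled to transcript length and library size, so genes can be set beside each other on this scale. Tests used limma on log2(FPKM + 1) over the 10368 genes that reached 1 FPKM in at least 3 libraries, and a pass means an adjusted p (Benjamini-Hochberg) under 0.05. Of the 9 genes 8 were tested. Tgfb2 stayed below 1 FPKM in every library and was not. Group values are means ± SD with n = 3.

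The libraries numbered 1 stood apart in all groups before any comparison of exosomes. Mitochondrially encoded genes took 33.6% of summed FPKM in KPC library 1, 28.3% in Panc02 library 1 and 26.4% in control library 1, against 11.2% to 15.9% in the other 6. Read depth is unknown, and summed FPKM ran between 257119 and 307280. Of 15 stellate and myofibroblast markers 12 were in the table, with summed levels of 974 to 1414 FPKM with KPC exosomes, 1121 to 1485 with Panc02 exosomes and 887 to 1063 in control. The quiescence markers Lrat and Reln and the stellate marker Des had no row in the table used here, nor had any of 10 hepatocyte markers. Leukocyte markers (4 of 12 in the table) summed to 8.73 to 14.9, 9.34 to 13.0 and 10.3 to 17.0 FPKM in KPC, Panc02 and control cultures, and the only endothelial marker in the table of 9, Cdh5, reached at most 1.50. Of 5 mesothelial markers Msln and Krt19 were in the table, and Msln, which made up nearly all of their sum, stood at 47.3 to 94.5 FPKM with KPC exosomes, 45.4 to 87.6 with Panc02 exosomes and 76.7 to 112 in control. Biliary and epithelial markers (5 of 8) summed to 23.0 to 25.5 FPKM with KPC exosomes, 25.8 to 36.7 with Panc02 exosomes and 21.5 to 23.9 in control. Sox9 made up most of these sums, at means of 20.9, 22.6 and 21.6 FPKM with KPC, Panc02 and control exosomes. Krt8 averaged 1.79, 3.73 and 0.551 FPKM in the same order, and Krt18 reached at most 0.762. Epcam and Krt19 each stood at 3.89 FPKM in Panc02 library 1 and at no more than 1.01 in every other library. In bulk RNA, fewer cells of a type and less RNA per cell cannot be told apart, and the part these markers have in the results was not tested.

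Tgfb3 was the most abundant ligand transcript in all 9 libraries. The gene (ENSMUSG00000021253.7, GRCm38 chromosome 12, 86056745 to 86079041, minus strand) encodes the isoform known in mice for its need in palate fusion. It stood at 14.0, 19.1 and 23.5 FPKM in KPC libraries 1, 2 and 3, at 19.9, 25.1 and 25.3 FPKM in Panc02 libraries, and at 16.8, 17.3 and 18.7 FPKM in control libraries. All Panc02 libraries lay above all control libraries, while the KPC libraries spanned both sides of control. The log2 fold change of Panc02 against control exosomes was 0.39 (SE 0.18, 95% interval -0.02 to 0.79), with an adjusted p of 0.576 in limma and 0.106 with the replicate block. For KPC against control it was 0.07 (SE 0.18, interval -0.34 to 0.47, adjusted p of 1.00).

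Tgfb1, the isoform most studied in fibrosis, was present at a lower level. The gene (ENSMUSG00000002603.15, chromosome 7, 25687002 to 25705077, plus strand) gave 2.82, 5.85 and 7.34 FPKM with KPC exosomes, 3.50, 6.54 and 7.23 FPKM with Panc02 exosomes, and 3.81, 4.59 and 5.55 FPKM in control. In both tumour groups library 1 lay below every control library and libraries 2 and 3 above every control library, so the groups overlapped. The log2 fold change was 0.10 for KPC exosomes (SE 0.32, 95% interval -0.63 to 0.84) and 0.22 for Panc02 exosomes (SE 0.32), and neither passed. These intervals still hold sizeable changes in either direction.

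Tgfb2 (ENSMUSG00000039239.14, chromosome 1, 186622792 to 186705989, minus strand), the isoform that binds Tgfbr2 weakly unless a co-receptor presents it, was the lowest of the 9. Its levels were 0.619, 0.462 and 0.573 FPKM with KPC exosomes, 0.645, 0.620 and 0.504 FPKM with Panc02 exosomes, and 0.459, 0.382 and 0.682 FPKM in control. The 3 groups overlapped. As a share of summed ligand FPKM, Tgfb3 took 76.7 ± 3.05% with KPC exosomes, 79.0 ± 3.28% with Panc02 exosomes and 77.5 ± 2.34% in control. Tgfb1 took 20.9%, 18.9% and 20.3% of it in the same order of groups, so the proportions of the ligand transcripts differed by no more than the spread between libraries.

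**Figure D1:**
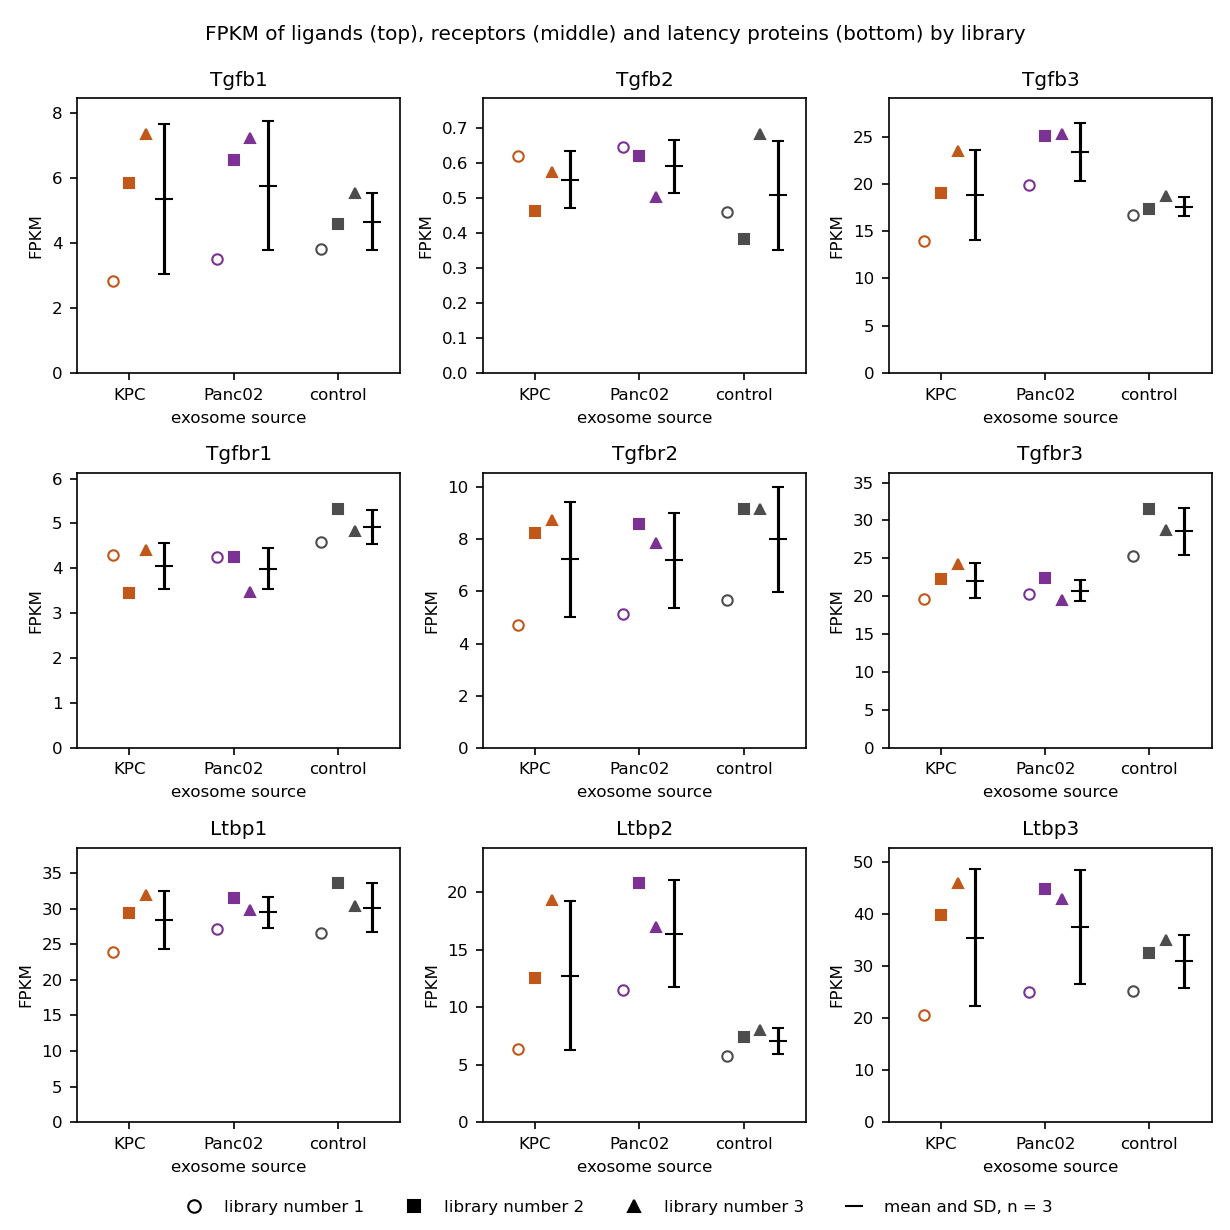
FPKM of each of the 9 genes in every library, with KPC exosomes at the left, Panc02 exosomes in the middle and control exosomes at the right of each panel; points are libraries, with a symbol for each replicate number, and bars are means with SD. Ltbp2 of the Panc02 libraries sits between 11.5 and 20.8 FPKM, above all control libraries at 5.79 to 8.01, and Tgfbr3 sits at 19.6 to 22.3 in Panc02 libraries, below control at 25.3 to 31.5.

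The plot of FPKM by library shows both features that recur below, the separation of Ltbp2 and Tgfbr3 from control and the low position of library 1 for some genes only.

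All 3 receptor genes had fold changes below 0 for both tumour exosomes, and Tgfbr3 had the clearest difference. Tgfbr3 (ENSMUSG00000029287.14, chromosome 5, 107106570 to 107289629, minus strand) encodes betaglycan, a co-receptor without a kinase domain that presents ligand to Tgfbr2 and that, once shed from the surface, can sequester it. It stood at 19.7, 22.3 and 24.2 FPKM with KPC exosomes, at 20.3, 22.3 and 19.6 FPKM with Panc02 exosomes, and at 25.3, 31.5 and 28.7 FPKM in control. Every library with tumour exosomes lay below every control library. The log2 fold change of Panc02 against control was -0.44 (SE 0.12, 95% interval -0.70 to -0.17), with an unadjusted p of 0.00496 and an adjusted p of 0.177 in limma. With the replicate block the same difference had an SE of 0.085, an interval of -0.64 to -0.24 and an adjusted p of 0.0327. For KPC against control it was -0.36 (SE 0.12, interval -0.62 to -0.09), with an adjusted p of 0.450 in limma and 0.103 with the block. That Tgfbr3 was lower in 3 of 3 pairs within replicate numbers for each tumour exosome follows from the groups not overlapping.

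Tgfbr1 (ENSMUSG00000007613.15, chromosome 4, 47353222 to 47414931, plus strand), the signalling kinase also called Alk5, gave 4.29, 3.46 and 4.40 FPKM with KPC exosomes, 4.25, 4.24 and 3.46 FPKM with Panc02 exosomes, and 4.58, 5.33 and 4.82 FPKM in control. These groups did not overlap either, but the gap was narrow, between 4.40 and 4.58 FPKM. The log2 fold changes of -0.23 for KPC exosomes (SE 0.12, 95% interval -0.50 to 0.04) and -0.25 for Panc02 exosomes (SE 0.12) did not pass, with adjusted p-values of 0.903 and 0.594 in limma. With the block they were 0.446 and 0.307.

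Tgfbr2 (ENSMUSG00000032440.13, chromosome 9, 116084293 to 116175360, minus strand), the ligand-binding kinase, overlapped in all groups. It stood at 4.70, 8.25 and 8.77 FPKM with KPC exosomes, 5.14, 8.59 and 7.87 FPKM with Panc02 exosomes, and 5.68, 9.16 and 9.18 FPKM in control. Within each replicate number both tumour libraries were below control. The log2 fold change was -0.14 for KPC and -0.13 for Panc02 exosomes, and neither passed with the block (adjusted p of 0.496 and 0.411 in limma). Without KPC library 1 the value for KPC exosomes was 0.10, and without Panc02 library 1 that for Panc02 exosomes was 0.061. Tgfbr3 made up 66.3 ± 2.05% of summed receptor FPKM with KPC exosomes, 65.1 ± 2.87% with Panc02 exosomes and 69.0 ± 2.01% in control.

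Among the latency proteins, Ltbp2 had higher levels with tumour exosomes while Ltbp1 did not differ beyond the spread of its libraries. Ltbp2 (ENSMUSG00000002020.15, chromosome 12, 84783212 to 84876532, minus strand) stood at 6.38, 12.5 and 19.4 FPKM in KPC libraries 1, 2 and 3, at 11.5, 20.8 and 17.0 FPKM in Panc02 libraries, and at 5.79, 7.37 and 8.01 FPKM in control libraries. All Panc02 libraries exceeded all control libraries, and KPC library 1 alone of the tumour libraries fell inside the control range. The log2 fold change of Panc02 against control was 1.08 (SE 0.35, 95% interval 0.27 to 1.90), with an unadjusted p of 0.0147 and an adjusted p of 0.289 in limma. Among tested genes 0.598% had a fold change at least as large in either direction. With the replicate block the SE was 0.20, the interval 0.61 to 1.56 and the adjusted p 0.0287. For KPC against control the log2 fold change was 0.66 (SE 0.35, interval -0.15 to 1.47), with an adjusted p of 0.949 in limma and 0.197 with the block. Within replicate numbers 1, 2 and 3 the log2 difference was 0.12, 0.69 and 1.18 for KPC exosomes and 0.88, 1.38 and 1.00 for Panc02 exosomes. The difference for KPC exosomes was 0.32 without KPC library 3 and 1.05 without KPC library 1.

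The calls of Ltbp2 and Tgfbr3 with the block depended on single libraries. Both were also made without the block once the 3 libraries numbered 1 were left out, at a log2 fold change of 1.19 for Ltbp2 (adjusted p of 0.0248 in limma) and -0.51 for Tgfbr3 (adjusted p of 0.0358). With the block, both were lost when control library 2 or 3, KPC library 2 or any one Panc02 library was left out, with adjusted p-values of up to 0.156 for Ltbp2 and 0.158 for Tgfbr3. Scaling all libraries to equal totals also ended the call of Tgfbr3 with the block (adjusted p of 0.0943). The share of all tested genes that passed for Panc02 exosomes was 1.01% with group means alone and 4.24% with the block. Part of the exonic sequence of Ltbp2 (9.34%) overlaps the gene D030025P21Rik on the other strand, and 4.54% of that of Tgfbr3 overlaps Gm43422 on the same strand. Tgfb3 shares 4.82% with Gm37804 and 7.6% with Gm48008, both on the other strand. Overlaps with genes that have levels of their own here are not listed. Exons of Ltbp3 have such an overlap, and its part in the levels of Ltbp3 was not tested. Whether reads were counted by strand is not given in the sources used here.

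Ltbp1 (ENSMUSG00000001870.15, chromosome 17, 75005568 to 75392512, plus strand), the family member that most often carries latent TGF-beta1, stood at 23.9, 29.4 and 31.9 FPKM with KPC exosomes, 27.2, 31.5 and 29.7 FPKM with Panc02 exosomes, and 26.6, 33.5 and 30.3 FPKM in control. The groups overlapped almost fully, and the log2 fold changes were -0.09 (SE 0.13) for KPC and -0.03 (SE 0.13) for Panc02 exosomes. Ltbp3 (ENSMUSG00000024940.10, chromosome 19, 5740904 to 5758532, plus strand), which is known in mice for its role in tooth and skeletal development, was the most abundant of the 9 on average. It gave 20.7, 39.8 and 45.9 FPKM with KPC exosomes, 25.0, 44.7 and 42.9 FPKM with Panc02 exosomes, and 25.2, 32.6 and 34.9 FPKM in control. As with Tgfb1, tumour libraries 1 lay below control and libraries 2 and 3 above it, and the log2 fold changes of 0.13 (SE 0.32) and 0.24 (SE 0.32) for KPC and Panc02 exosomes did not pass.

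**Figure D2:**
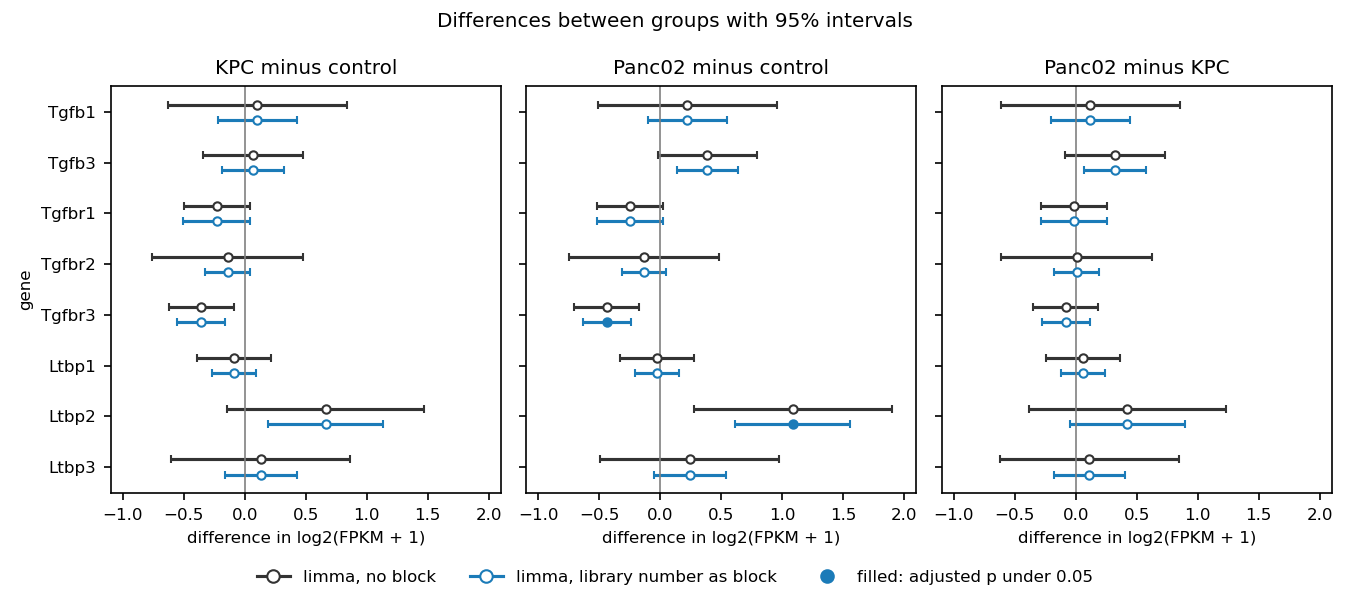
Log2 fold changes on the log2(FPKM + 1) scale of the 8 tested genes in the 3 comparisons, with 95% intervals from limma with group means alone and with the replicate block. For Panc02 against control exosomes the intervals of Ltbp2 (0.27 to 1.90) and Tgfbr3 (-0.70 to -0.17) lie away from 0, and those with the block are narrower.

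Counted over the 8 tested genes, 0 passed for KPC against control in limma, where 0.328% of all tested genes passed, and 1 (Tgfbr3) had an unadjusted p under 0.05, against 6.54% of all tested genes. For Panc02 against control 0 passed, against 1.01% of all, and 2 (Ltbp2 and Tgfbr3) had an unadjusted p under 0.05, against 9.6%. With the replicate block 0 of 8 passed for KPC, against 1.68%, and 2 of 8 for Panc02, against 4.24%. Without regard to a test, 2 of 8 lay wholly below control for KPC exosomes (Tgfbr1 and Tgfbr3), against 7.31% of all tested genes, and 0 wholly above, against 4.14%. For Panc02 exosomes 2 lay wholly below (Tgfbr1 and Tgfbr3), against 9.3%, and 2 wholly above (Tgfb3 and Ltbp2), against 6.79%. The median log2 fold change of the 8 was -0.01 for KPC and 0.10 for Panc02 exosomes, beside -0.01 and -0.00198 over all tested genes. Both comparisons use the same 3 control libraries.

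The tumour sources were also set against each other. None of the 8 genes passed for Panc02 against KPC exosomes in limma, with or without the block, and 0% of all tested genes passed. At an unadjusted p under 0.05 there were 0 of 8 genes, against 0.829% of all, and 1 with the block, Tgfb3, against 2.51%. Tgfb3 had a log2 fold change of 0.32 (95% interval -0.09 to 0.73), Ltbp2 one of 0.42 (interval -0.39 to 1.23) and Tgfbr3 one of -0.08 (interval -0.35 to 0.18). The groups overlapped for all 9 genes, while 2.62% of all tested genes did not overlap. For Ltbp2 the interval still includes a difference larger than that between KPC and control, so these libraries do not show the sources to act alike.

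Because library 1 was low for several of the genes in every group, ratios between genes within a library were also compared. Relative to the mean of libraries 2 and 3, Ltbp3 in library 1 differed by -1.01, -0.79 and -0.41 on the log2 scale with KPC, Panc02 and control exosomes. Tgfb1 differed by -0.98, -0.81 and -0.33, Tgfbr2 by -0.74, -0.59 and -0.61, and Ltbp2 by -1.17, -0.67 and -0.36. Tgfbr1 hardly differed (0.11, 0.12 and -0.12), and the median tested gene differed by -0.21, -0.15 and -0.12. The genes were thus unequally low in the libraries with the high mitochondrial share, whose part in this was not tested.

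The ratio of Ltbp2 to Ltbp3 was steadier across replicate numbers than either gene. It was 0.309, 0.315 and 0.422 in KPC libraries, 0.460, 0.465 and 0.396 in Panc02 libraries, and 0.230, 0.227 and 0.230 in control libraries. All 6 tumour libraries lay above all 3 control libraries, KPC library 1 included. Taken over Ltbp3 in the same way, 1.36% of tested genes lay wholly above control for KPC exosomes and 1.64% for Panc02 exosomes. Over Ltbp1 the ratio of Ltbp2 was 0.267, 0.427 and 0.607 with KPC exosomes, 0.422, 0.661 and 0.572 with Panc02 exosomes, and 0.218, 0.220 and 0.265 in control, again without overlap. There 7.98% and 7.64% of tested genes lay wholly above control for KPC and Panc02 exosomes. Ltbp2 made up 12.5%, 15.3% and 19.9% of summed FPKM of the 3 latency proteins in KPC libraries, 18.0%, 21.4% and 19.0% in Panc02 libraries, and 10.1%, 10.0% and 10.9% in control libraries. Ltbp1 took 38.6%, 36.1% and 44.4% on average with KPC, Panc02 and control exosomes, and Ltbp3 took 45.5%, 44.4% and 45.2%. These ratios were chosen after the levels were seen and carry no test.

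**Figure D3:**
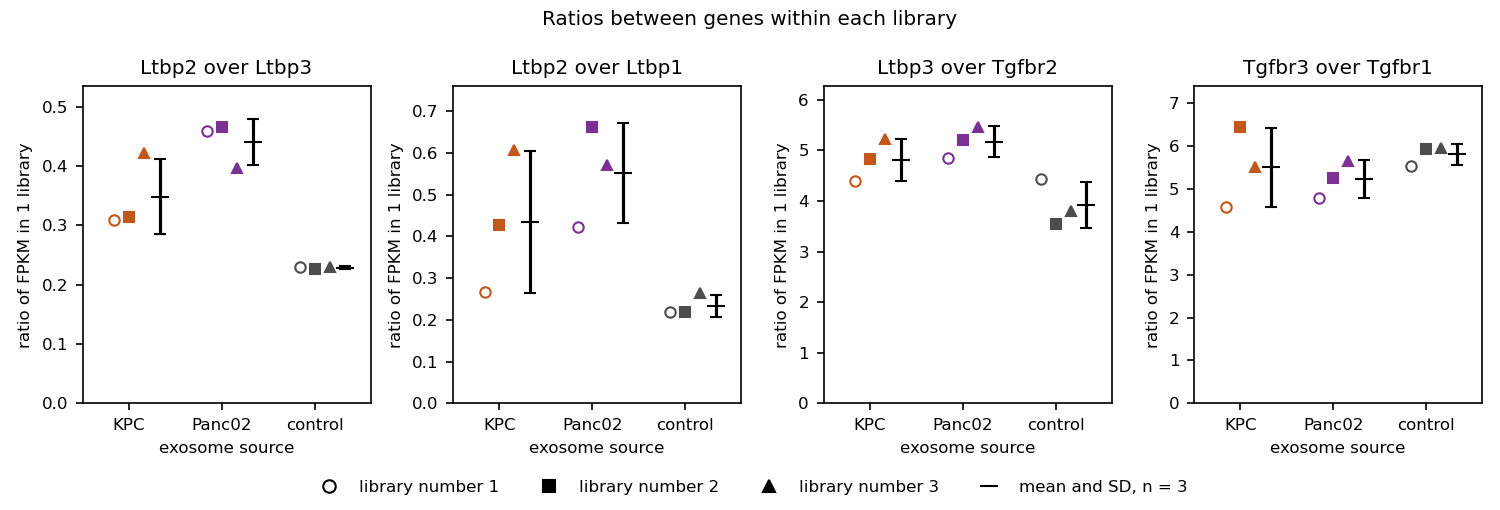
Ratios of FPKM between pairs of the genes within each library, with KPC exosomes at the left, Panc02 exosomes in the middle and control exosomes at the right of each panel; points are libraries, with a symbol for each replicate number, and bars are means with SD. The Ltbp2 to Ltbp3 ratio lies between 0.227 and 0.230 in control libraries and at 0.309 or above in all 6 libraries with tumour exosomes.

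As the plot of ratios shows, not every pair separated the groups. Tgfbr3 over Tgfbr1, the 2 receptors that lay below control, was 4.59, 6.43 and 5.50 with KPC exosomes, 4.78, 5.26 and 5.65 with Panc02 exosomes, and 5.53, 5.92 and 5.96 in control, and both tumour groups overlapped control. Ltbp3 over Tgfbr2 was 4.40, 4.82 and 5.23 with KPC exosomes, 4.85, 5.21 and 5.46 with Panc02 exosomes, and 4.43, 3.55 and 3.80 in control, so that Panc02 libraries alone lay wholly above, as 9.53% of tested genes did over Tgfbr2. The ratio of Ltbp3 to Tgfb1, not plotted, stayed between 5.93 and 7.32 over all 9 libraries, with overlapping groups.

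The order of levels was Ltbp3, Ltbp1, Tgfbr3, Tgfb3, Ltbp2, Tgfbr2, Tgfb1, Tgfbr1 and Tgfb2 by mean FPKM with KPC exosomes. With Panc02 exosomes it was the same except that Tgfb3 (23.4 ± 3.07 FPKM) came before Tgfbr3 (20.7 ± 1.44 FPKM), whose libraries overlapped. In control, Tgfbr2 (8.01 ± 2.02 FPKM) came before Ltbp2 (7.06 ± 1.14 FPKM) with overlapping libraries, and Tgfbr1 before Tgfb1. With Panc02 exosomes Ltbp2 (16.4 ± 4.69 FPKM) lay wholly above Tgfbr2 (7.20 ± 1.82 FPKM). In control Tgfbr3 (28.5 ± 3.11 FPKM) lay wholly above Tgfb3 (17.6 ± 1.01 FPKM), and with KPC exosomes these 2 overlapped (22.0 ± 2.28 and 18.8 ± 4.75 FPKM). With KPC exosomes the only neighbours in the order that did not overlap were Tgfbr1 and Tgfb2.

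Some of the genes varied together over the 9 libraries. After the mean of each replicate number was removed, Pearson's r on log2(FPKM + 1) was 0.985 for Tgfb1 and Ltbp3, 0.898 for Tgfbr2 and Tgfbr3, 0.895 for Tgfb3 and Ltbp2, and -0.747 for Tgfbr3 and Ltbp2. The tested genes most like Tgfb1 by this measure were Adarb1 (r = 0.994), Dok1 (0.993) and Homer3 (0.992). Those most like Tgfb3 were Pck2 (0.999), Fam214b (0.987) and Pdia4 (0.983), and those most like Tgfb2 were Supt6 (0.984), Cdk12 (0.970) and D16Ertd472e (0.962). For Ltbp2 they were Endod1 (0.995), the collagen gene Col5a1 (0.994) and Plekhg3 (0.994). For Tgfbr3 they were Fbxo32 (0.989), Slc30a4 (0.988) and the basement membrane gene Nid1 (0.987). The 9 points share libraries and group means, so these values are descriptions only. The genes named as most like a member were picked as the highest of all tested genes, which favours high r. Tgfb2 stayed below 1 FPKM in every library, so its correlations rest on low levels.

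The wider pathway was counted in lists that were chosen with earlier results of these data known, so a count is no independent evidence of a direction. Of 18 tested genes for activation and matrix anchoring of latent TGF-beta, 0 passed for KPC exosomes and 2 passed as higher for Panc02 exosomes, where 0.434% of all tested genes passed as higher. These were Fbn1, the fibrillin whose microfibrils hold latent TGF-beta binding proteins, and Itgb3, the partner chain of an alpha-v integrin. Fbn1 stood at 18.8, 21.2 and 18.3 FPKM with Panc02 exosomes, against 8.30, 8.43 and 8.39 FPKM in control (log2 fold change 1.12, SE 0.15, adjusted p of 0.0147 in limma). Itgb3 stood at 2.37, 2.17 and 1.87 FPKM with Panc02 exosomes, against 0.820, 0.655 and 0.593 FPKM in control (log2 fold change 0.89, SE 0.12, adjusted p of 0.0158). With the block 6 passed as higher and 2 as lower for Panc02 exosomes, against 1.85% and 2.39% of all, and 1 passed in each direction for KPC exosomes, against 0.588% and 1.09%. The list's median log2 fold change was 0.16 for KPC and 0.35 for Panc02 exosomes.

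Among 11 tested genes for proteins that bind the ligands outside the cell or act as co-receptors, 0 passed for KPC exosomes and 2 rose with Panc02 exosomes, where 0.125% and 0.434% of all tested genes passed as higher. Biglycan, Bgn, stood at 213, 171 and 159 FPKM with Panc02 exosomes, against 107, 86.4 and 94.0 FPKM in control (log2 fold change 0.91, SE 0.13, adjusted p of 0.0234 in limma). Asporin, Aspn, averaged 32.4 ± 8.41 FPKM with Panc02 exosomes and 10.9 ± 1.40 FPKM in control (log2 fold change 1.47, adjusted p of 0.0321). Both are small leucine-rich proteoglycans of the matrix. With the block both also passed for KPC exosomes, at a log2 fold change of 0.79 for Bgn (adjusted p of 0.00865) and 1.19 for Aspn (adjusted p of 0.00967). They were the 2 of 11 that passed as higher for KPC exosomes with the block, against 0.588% of all tested genes. For Panc02 exosomes 3 then passed as higher and 1 as lower, against 1.85% and 2.39%. The list's medians were 0.08 and 0.18.

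Among 19 Smads and feedback regulators, Pmepa1, a membrane protein that binds receptor-activated Smads, rose with both tumour exosomes and Smad3 fell with Panc02 exosomes. Of all tested genes 0.125% passed as higher for KPC exosomes. For Panc02 exosomes 0.434% passed as higher and 0.579% as lower. Pmepa1 stood at 14.2, 18.8 and 26.5 FPKM with KPC exosomes, 30.6, 31.1 and 31.8 FPKM with Panc02 exosomes, and 6.79, 5.03 and 6.67 FPKM in control. Its log2 fold change was 1.51 for KPC (adjusted p of 0.0259 in limma) and 2.17 for Panc02 exosomes (adjusted p of 0.00310). Smad3, the transcription factor that Tgfbr1 phosphorylates, stood at 7.72, 7.97 and 7.44 FPKM with Panc02 exosomes, against 11.0, 12.3 and 12.1 FPKM in control (log2 fold change -0.55, SE 0.08, adjusted p of 0.0255). With KPC exosomes Smad3 stood at 8.52, 8.77 and 8.98 FPKM, wholly below control as well (log2 fold change -0.39, adjusted p of 0.175, and 0.0483 with the block). With the block 1 of the 19 passed in each direction for KPC exosomes, against 0.588% and 1.09% of all tested genes. For Panc02 exosomes 3 then passed as higher and 1 as lower, against 1.85% and 2.39%. The list's medians were -0.00387 and 0.07, close to those of all genes.

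Genes that TGF-beta is known to induce had the highest medians, 0.55 for KPC and 0.69 for Panc02 exosomes. This list too was chosen with earlier results of these data known, so its medians and counts are no independent evidence of a direction. Of 21 tested, 5 passed as higher for each tumour exosome and 0 as lower, where 0.125% and 0.434% of all tested genes passed as higher. For Panc02 exosomes those named by lowest p were Adam12, a metalloproteinase (log2 fold change 2.35), Ctgf, a matricellular growth regulator (1.41), Has2, a hyaluronan synthase (1.31), and Pmepa1, at adjusted p-values of 0.00284 to 0.00310 in limma. For KPC exosomes Adam12 (1.86), Ctgf (0.96), Has2 (0.93) and the cytokine gene Il11 (0.66) passed at 0.0114 to 0.0259. With the block 10 passed as higher for KPC and 17 for Panc02 exosomes, against 0.588% and 1.85% of all tested genes. Fold changes lay above 0 for 19 of the 21 genes with KPC exosomes and for 20 with Panc02 exosomes. Tgfbi had log2 fold changes of -0.33 for KPC and -0.31 for Panc02 exosomes and passed with neither model. Its KPC libraries lay wholly below control, as those of 7.31% of all tested genes did. Junb was at -0.03 for KPC exosomes. Ltbp2, Pmepa1, Fn1, Skil and Smad7 belong to this list as well as to others, so the lists are not separate from each other. In no list did a gene pass for Panc02 against KPC exosomes.

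**Figure D4:**
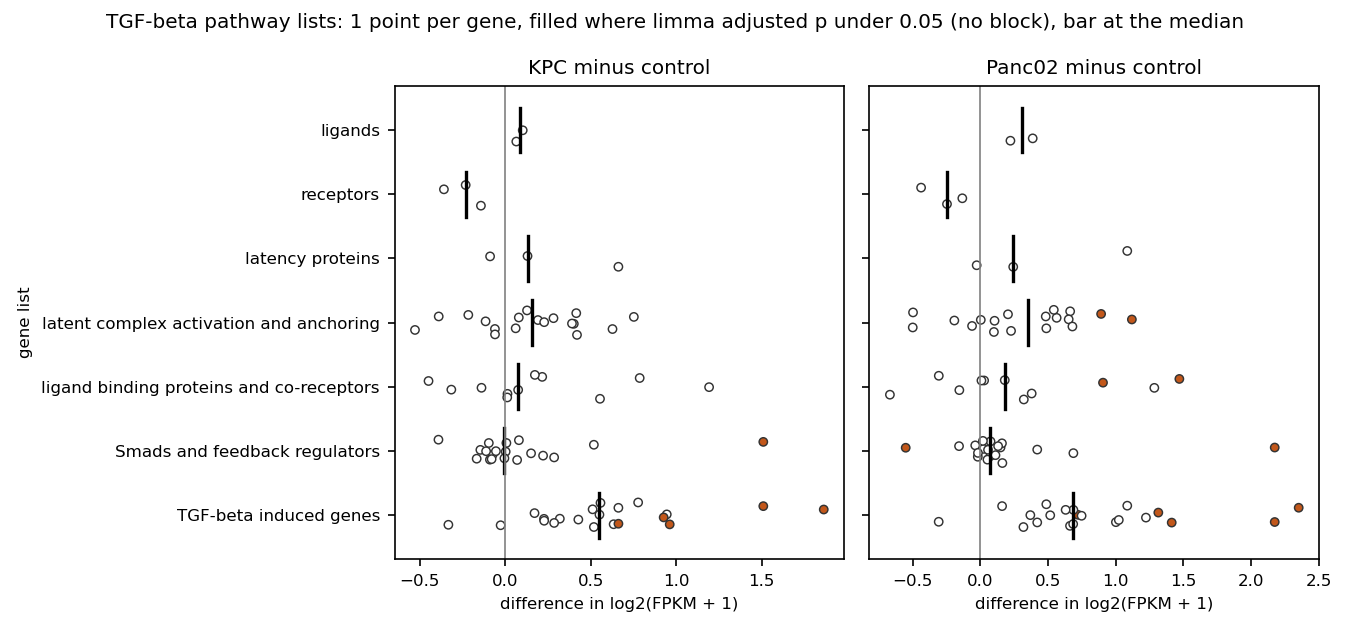
Log2 fold changes against control exosomes of the tested genes of each TGF-beta list, for KPC exosomes and Panc02 exosomes; points are genes, filled where the adjusted p of limma is under 0.05, and lines are list medians. The induced genes have medians of 0.55 and 0.69, and the 3 receptor genes all lie below 0 in both comparisons.

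In the plot of pathway lists the median of the receptors lay below 0 and that of the induced genes above it in the same cultures, at -0.23 and 0.55 for KPC exosomes and at -0.25 and 0.69 for Panc02 exosomes. The receptor median is the value of Tgfbr1, which passed in neither comparison, with or without the block. Over all tested genes the medians were -0.00961 for KPC and -0.00198 for Panc02 exosomes. The lists were chosen with earlier results of these data known, and both comparisons share the control libraries. The difference between the lists was not tested.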

How the data were processed

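The authors deposited FPKM values (fragments scaled to transcript length and to mapped fragments) for protein-coding genes in 9 libraries, with positions on GRCm38. Per the submitters' processing notes the tools were cutadapt, HISAT2 2.0.4 and StringTie 1.2.3. The sources used here give neither strand counting nor read depth: low values followed no whole-read step, so no counting error can be given. The scale for tests was log2(FPKM + 1). A filter of 1 FPKM in 3 or more libraries kept 10368 genes and left out 683. These were fitted with limma 3.58.1 in R 4.3.3, a trended prior and a mean per group, giving 6 residual and 2.38 prior degrees of freedom (4 and 3.51 with the replicate block). Tests were two-sided, with Benjamini-Hochberg adjustment over all tested genes within each comparison. The model with group means alone was tested on simulated data that held no replicate effect, and the model with the block was not.

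Deviations from group means correlated at 0.639 to 0.810 between libraries numbered 1 and at 0.243 to 0.511 between libraries that share number 2 or 3. A library 2 and a library 3 from separate groups correlated as highly, at 0.299 to 0.613. The correlations thus set the libraries numbered 1 apart but do not show that numbers 2 and 3 pair libraries. For the block all numbers were taken to pair libraries. The labels do not say whether replicates were separate cultures or animals, and p-values therefore measure only the spread between these samples.

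The genes and lists were chosen with earlier results of these data known. All 9 genes are named. From each list up to 4 genes that passed are named per comparison and direction, by lowest p, and for the ligands and for genes that passed, the 3 tested genes with the highest correlation. Ltbp2 and Tgfbr3, which passed with the block, were added to the correlated genes after their values were seen. Promoters are RefSeq's, on GRCm38.p6, and overlaps come from GENCODE M21 on GRCm38. Alternatives were another pseudocount, no filter, other scalings, no trend, the block, and libraries left out. Figures used matplotlib 3.10.9.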

Additional observations from a re-analysis of the deposited data

How the results depend on the processing

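For KPC against control and Panc02 against KPC exosomes, 0 of the 8 tested genes passed under each of the settings tried. For Panc02 against control 2 passed with the replicate block and 2 without the 3 libraries numbered 1, and 0 under the other settings. Further settings for that comparison were chosen after seeing the data. With the block, 2 passed when totals excluded mitochondrial genes, 2 with median-ratio scaling and 1 (Ltbp2) with equal totals, where Tgfbr3 had an adjusted p of 0.0943 in limma. Leaving out single libraries with the block gave 0 to 3 calls. The count was 3 without control library 1, which added Tgfb3 at 0.50 (adjusted p of 0.0372), 2 without KPC library 1 or 3, and 0 without any of the other 6. The block changed no call of these 8 genes in the other comparisons. The number of all tested genes that passed also moved with the setting. For Panc02 against control it was 105 with group means alone and 440 with the block. For KPC against control it was 34 with group means alone, 6 with equal totals and 178 without the libraries numbered 1. Gained and lost calls of these 8 genes are not set apart here from such shifts.

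Changes of sign fell on differences that lay between -0.14 and 0.13 on the log2 scale with all libraries. With single libraries left out, values of reversed sign reached -0.24, so they were not confined to values near 0. Ltbp1 for Panc02 against control became 0.0029 with equal totals, with and without the block. For Panc02 against KPC, Ltbp1 became -0.00073 without the libraries numbered 1, Tgfbr1 became 0.0038 with equal totals, and Tgfbr2 became -0.0041 with totals excluding mitochondrial genes, -0.0052 with median-ratio scaling and -0.044 without the libraries numbered 1. With single libraries left out, KPC against control ranged from -0.17 to 0.027 for Ltbp1, -0.088 to 0.47 for Ltbp3, -0.13 to 0.43 for Tgfb1, -0.10 to 0.25 for Tgfb3 and -0.34 to 0.10 for Tgfbr2. Panc02 against control ranged from -0.11 to 0.049 for Ltbp1 (-0.07 to 0.012 with the block, and 0.010 there without Panc02 library 3) and -0.34 to 0.061 for Tgfbr2. Panc02 against KPC ranged from -0.056 to 0.15 for Ltbp1, -0.23 to 0.37 for Ltbp3, -0.21 to 0.39 for Tgfb1, -0.10 to 0.061 for Tgfbr1 and -0.24 to 0.20 for Tgfbr2. The cause was not tested. Ltbp2 for Panc02 against control stayed between 0.90 and 1.31 without the block and Tgfbr3 between -0.52 and -0.37. With 3 libraries a group and unknown read depth, differences of the size seen for Tgfb1, Tgfbr2 and Ltbp3 could not be resolved.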

Other observations

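With the replicate block, further genes of the list for activation and matrix anchoring of latent TGF-beta passed for Panc02 against control exosomes. They are named here after their values were seen. A place in the list does not show that a gene activates latent TGF-beta. Itgav, the alpha-v integrin chain, stood at 18.3, 18.4 and 14.0 FPKM with Panc02 exosomes, against 9.61, 10.8 and 10.3 FPKM in control (log2 fold change 0.66, adjusted p of 0.0368 in limma). Thbs1, a thrombospondin able to activate latent TGF-beta, stood at 156, 202 and 178 FPKM with Panc02 exosomes, against 107, 134 and 120 FPKM in control (0.56, adjusted p of 0.0391). Its relative Thbs2 differed the other way, at 61.3, 71.1 and 63.7 FPKM with Panc02 exosomes, against 82.1, 101 and 95.7 FPKM in control (-0.50, adjusted p of 0.0180), and it also passed for KPC exosomes (-0.53, adjusted p of 0.0291). The protease gene Bmp1 was higher with Panc02 exosomes (0.54, adjusted p of 0.0202), and Plau, which encodes the urokinase plasminogen activator, was lower (-0.50, adjusted p of 0.0135).

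The inhibitory Smad gene Smad7, a feedback target of the pathway, stood at 4.55, 6.37 and 6.47 FPKM with Panc02 exosomes, against 2.96, 3.37 and 3.23 FPKM in control, and passed with the block (0.69, adjusted p of 0.0163 in limma). Decorin, Dcn, a proteoglycan that binds TGF-beta, stood at 5.13, 5.56 and 6.19 FPKM with Panc02 exosomes, against 9.11, 10.0 and 9.42 FPKM in control (-0.67, adjusted p of 0.0360 with the block), while its relatives Bgn and Aspn were higher. In the model with group means alone Itgav, Thbs1, Thbs2, Bmp1, Plau, Smad7 and Dcn did not pass.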
